A study of Homo sapiens with 6 samples.

Results

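The genes described here are 45 genes of DNA replication and S phase, the part of the cell cycle in which the genome is copied. They were chosen by symbol from a fixed list, drawn up with earlier results of these data known. All 45 were found among the 58735 genes of the deposited files, each on a single row. The libraries were RNA-seq libraries of MUM2B cells, given by the labels as a melanoma line, that stably carried a LACTB overexpression construct (LACTB, 3 libraries) or an empty vector (EV, 3 libraries). LACTB is a mitochondrial protein related to bacterial beta-lactamases. Both groups were grown in the same RPMI medium with 10% serum, and the labels name neither the vector and its promoter nor whether a line was 1 clone or a pool. The labels number the replicates without saying whether each was its own culture; p-values therefore reflect the spread among these libraries alone, and that spread may be technical.

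Replication is prepared when the origin recognition complex, CDC6 and CDT1 load the MCM2-7 ring onto DNA, and it starts when CDC45 and the GINS complex join the ring to form the active helicase. DNA polymerases alpha, delta and epsilon then copy the strands. Delta and epsilon are held by the sliding clamp PCNA, which the RFC complex loads, while FEN1 and LIG1 join the pieces of the lagging strand. Most genes of this machinery are transcribed from late G1 into S phase under the control of E2F transcription factors, and their summed RNA is widely used as a readout of proliferation.

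Across the 45 genes, RNA levels were modestly lower in LACTB cells than in EV cells, with a few exceptions inside the same protein complexes. 27 genes fell and 1 rose, and 17 did not pass the threshold. The falls lay between 10.8% (SLBP) and 33.3% (FEN1) of the mean FPKM in EV cells. FPKM is a fragment count divided by exon length and a measure of library size, so it can be compared between genes. A gene was called when its adjusted p was under 0.05 in limma on log2(FPKM + 1), fitted over the 11875 genes that averaged 1 FPKM or more and adjusted with Benjamini-Hochberg. All 45 genes passed that filter. The share that fell was 60.0%, beside 17.2% of all tested genes, and the share that rose was 2.22%, beside 14.8% of all tested genes; in either direction, 32% of all tested genes were called. The median log2 fold change of the 45 genes was -0.20, beside -0.01 for all tested genes. The differences from all tested genes were not tested, since the 45 genes were chosen with earlier results known. In 31 genes every LACTB library lay below every EV library, and in 3 genes every LACTB library lay above. Over all tested genes these arrangements held for 25.1% and 22.3%. In bulk RNA, fewer cells in S phase and less of these RNAs per cell cannot be told apart.

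**Figure D1:**
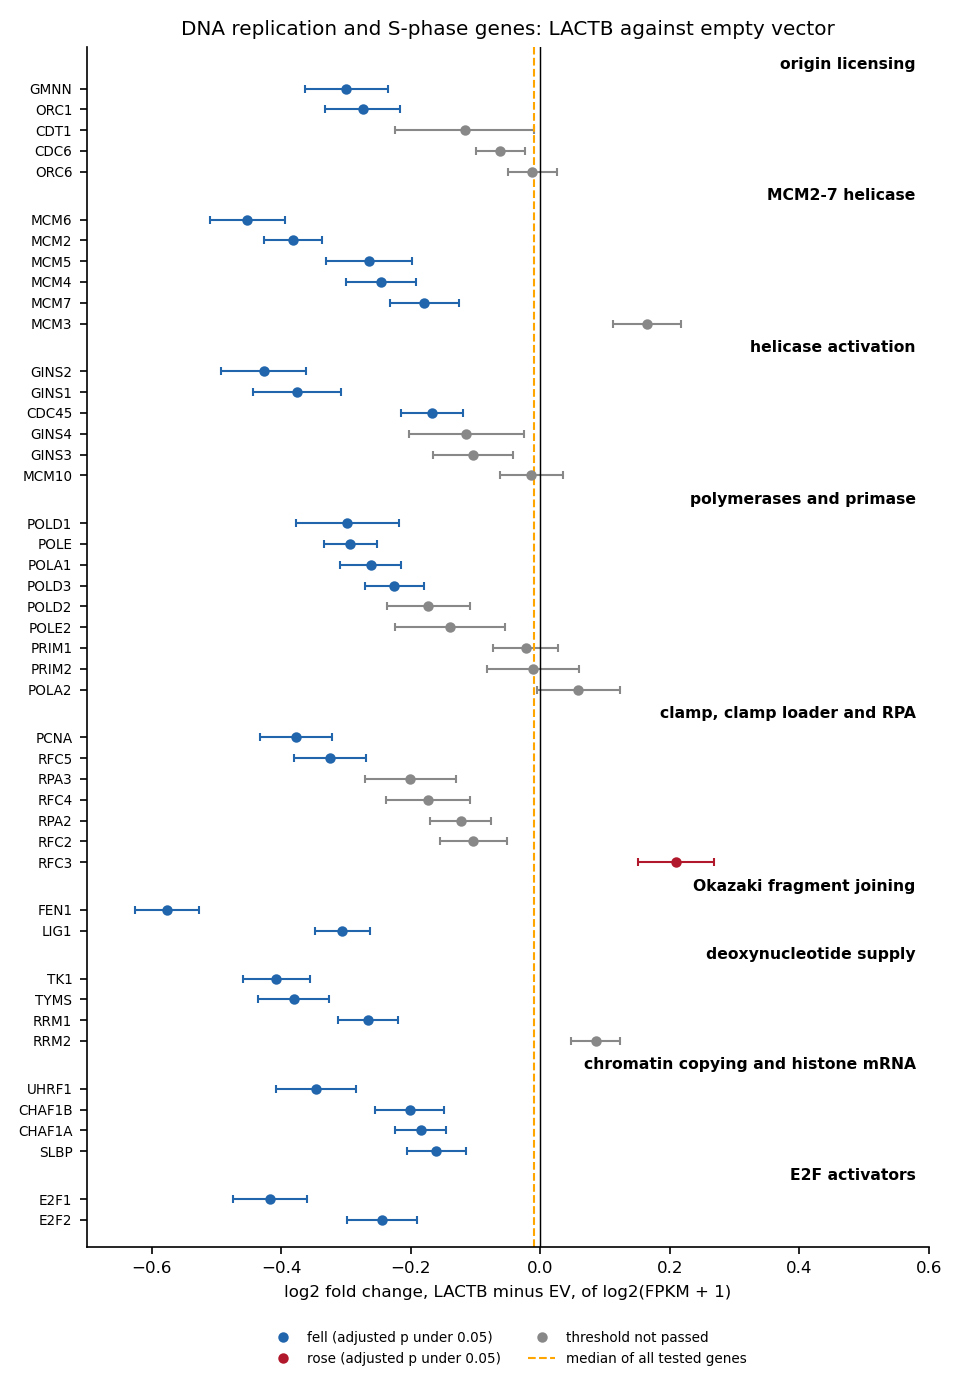
Log2 fold change (LACTB minus EV, on the log2(FPKM + 1) scale) of each of the 45 genes, grouped by role, with bars of 1 standard error from limma. Filled blue points fell, the red point (RFC3) rose and grey points did not pass the threshold; the dashed line is the median of all tested genes at -0.01.

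The libraries held 16978799 to 18395631 reads in genes, recovered from the FPKM values, and the 45 genes rested on 182 to 9806 reads per library. LACTB itself stood at 173.9, 169.3 and 161.5 FPKM in LACTB replicates 1 to 3, against 3.81, 3.39 and 4.71 FPKM in EV replicates 1 to 3, so the libraries matched their labels. EV replicate 3 stood apart from its group: mitochondrially encoded genes took 3.61% of its reads, against 4.65% to 5.04% in LACTB libraries and 5.54% and 5.62% in the other EV libraries. Without EV replicate 3, 27 of the 45 genes again fell and 1 rose, but MCM7 and SLBP lost their call while CDT1 and POLD2 gained one. The 8 melanocyte markers examined (MITF, MLANA, PMEL, TYR, TYRP1, DCT, SOX10 and S100B) were all under 1 FPKM, so the labelled origin of the line is not visible in them, and S100B was listed at 0 in every library. Their summed level was 1.70 to 2.13 FPKM in LACTB libraries and 1.26 to 1.34 FPKM in EV libraries. Summed markers of fibroblasts (5 genes), leukocytes (4 genes) and endothelium (3 genes) reached at most 0.381, 0.234 and 0.511 FPKM in LACTB libraries and 0.512, 0.213 and 0.805 FPKM in EV libraries, with DCN and CD3E listed at 0. The melanocyte sums were higher and the fibroblast and endothelial sums lower in every LACTB library than in every EV library. A few genes under 1 FPKM carried these differences. MITF and TYRP1 were higher in every LACTB library, and COL1A1 and PECAM1 were lower. The other markers overlapped between the groups or stood at 0. Among them the fibroblast marker PDGFRB averaged higher in LACTB libraries (0.0733 against 0.0392 FPKM). The part of such cells in the results was not tested.

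The promoters of these genes were searched for letters by which E2F factors are usually recognised. The motifs searched were TTTCCCGC, TTTGGCGC, TTTCGCGC and TTTGCCGC, on both strands, in the RefSeq windows (GRCh38.p14) that run from 250 bases before to 50 bases after each transcription start. 39 of the 45 genes had a window, and 21 of these 39 (53.85%) held a match, beside 3.99% of the 27305 genes in the table. MCM4, MCM5, GINS4, POLD3, RPA2 and RPA3 had no entry. A match was found in 14 of 24 genes that fell, in 6 of 14 genes that did not pass the threshold and in RFC3, the gene that rose. CCAAT, the letters of the box bound by NF-Y and common in cell cycle promoters, occurred in 23 of the 39 genes (58.97%), beside 39.72% of all genes in the table, and 12 genes held both kinds of match. A match is a stretch of letters and not a measured binding site.

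Shown here are stretches of 100 bases upstream of the start, 5′ to 3′ on the gene's own strand, for 6 genes that fell and for MCM3, which was higher in every LACTB library. Each was chosen because it holds a match, so that a reader can see where the letters lie. Capitals mark the E2F-type matches. The E2F1 stretch is chr20:33686405-33686504 (minus strand), MCM6 is chr2:135876450-135876549 (minus strand) and PCNA is chr20:5126627-5126726 (minus strand). POLA1 is chrX:24693761-24693860 (plus strand), UHRF1 is chr19:4909964-4910063 (plus strand), GMNN is chr6:24775313-24775412 (plus strand) and MCM3 is chr6:52284882-52284981 (minus strand). The UHRF1 and GMNN stretches lie outside exons but inside the annotated genes, whose outermost starts are at 4903080 and 24774931.
E2F1: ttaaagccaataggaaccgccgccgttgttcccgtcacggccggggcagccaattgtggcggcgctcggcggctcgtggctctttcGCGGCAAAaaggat
MCM6: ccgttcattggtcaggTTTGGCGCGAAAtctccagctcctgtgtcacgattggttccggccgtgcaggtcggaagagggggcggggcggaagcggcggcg
PCNA: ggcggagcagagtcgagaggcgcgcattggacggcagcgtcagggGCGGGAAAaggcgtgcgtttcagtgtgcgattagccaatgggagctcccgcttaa
POLA1: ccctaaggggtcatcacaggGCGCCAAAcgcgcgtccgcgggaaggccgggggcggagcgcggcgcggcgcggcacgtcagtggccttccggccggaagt
UHRF1: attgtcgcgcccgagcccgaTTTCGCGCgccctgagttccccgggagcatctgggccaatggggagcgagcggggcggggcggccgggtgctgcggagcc
GMNN: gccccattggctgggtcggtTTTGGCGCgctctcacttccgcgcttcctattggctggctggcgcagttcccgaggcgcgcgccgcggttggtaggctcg
MCM3: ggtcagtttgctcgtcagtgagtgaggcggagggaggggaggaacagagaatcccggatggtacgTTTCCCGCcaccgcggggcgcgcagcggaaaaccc
In the MCM6 stretch 2 matches on opposite strands overlap, and the window holds a further overlapping pair upstream of it. The windows of E2F1 and MCM3 also hold a match that is not marked, beginning 20 and 4 bases before the start. Another window of UHRF1 holds a match 14 bases before its start.

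**Figure D2:**
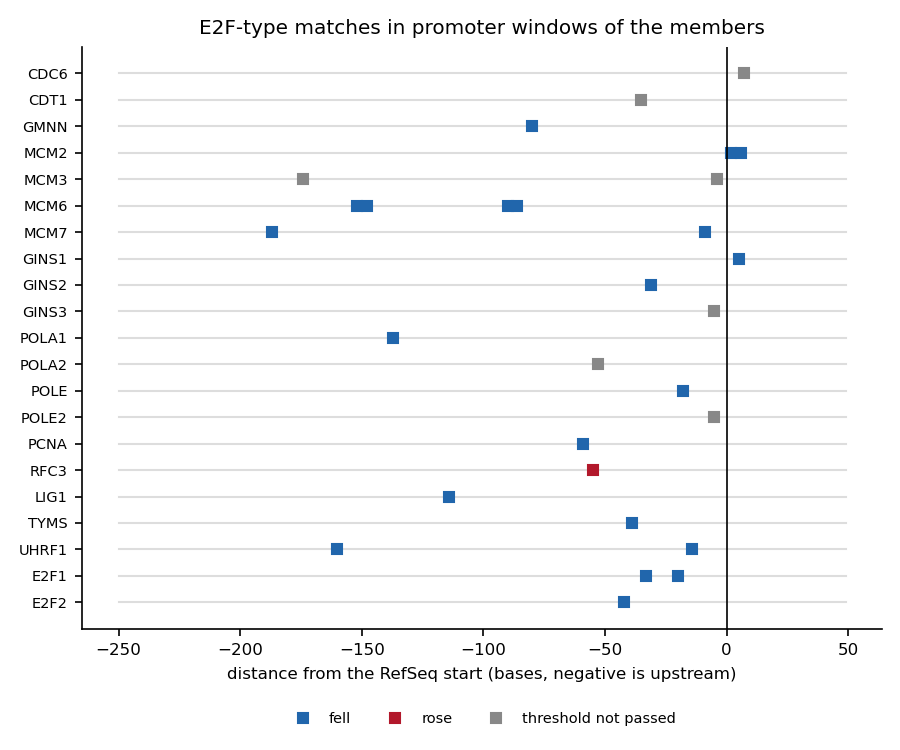
Position of E2F-type matches (squares) in the promoter windows of the 21 genes that held one, as distance in bases from the RefSeq start, negative upstream. Blue genes fell, the red gene rose and grey genes did not pass the threshold, and the matches lie between 187 bases before and 7 bases after the start.

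Both activating E2F factors of the list fell in LACTB cells. E2F1, which activates the replication genes in late G1, stood at 14.2, 14.9 and 16.5 FPKM in LACTB replicates 1 to 3, against 20.5, 20.7 and 20.6 FPKM in EV replicates 1 to 3. The groups did not overlap, and the EV libraries were nearly equal. On the log2 scale E2F1 changed by -0.42 (SE 0.057; limma, adjusted p = 0.00209), a fall of 26.2%. E2F2, its close relative, was expressed at a lower level, at 2.91, 2.83 and 2.69 FPKM in LACTB libraries and 3.45, 3.64 and 3.46 FPKM in EV libraries. The change was -0.24 on the log2 scale (limma, adjusted p = 0.0143), and the call was lost without EV replicate 2. Its adjusted p over 14 alternatives ran from 0.01004 to 0.0541.

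The origin licensing genes divided between 2 that fell and 3 that did not pass the threshold. ORC1, the largest subunit of the origin recognition complex, was at 10.7, 12.1 and 10.6 FPKM in LACTB libraries and 13.3, 13.7 and 13.9 FPKM in EV libraries. GMNN, which encodes geminin, the inhibitor of CDT1 that blocks repeated licensing, was at 16.3, 14.3 and 15.5 FPKM in LACTB libraries and 19.0, 17.9 and 20.4 FPKM in EV libraries. Neither gene overlapped between the groups, and the log2 fold changes were -0.27 and -0.30 (limma, adjusted p = 0.0114 for ORC1 and 0.0125 for GMNN). As TPM both calls were lost (adjusted p = 0.0562 for ORC1 and 0.0683 for GMNN), and the lowest values over the alternatives were 0.00433 and 0.00350. ORC6, the smallest subunit of the same complex, was level at 19.1, 19.2 and 18.4 FPKM in LACTB libraries and 19.2, 18.9 and 19.1 FPKM in EV libraries (limma, adjusted p = 0.832). CDC6, the loader of the MCM ring, averaged 23.8 ± 0.395 FPKM in LACTB libraries and 24.9 ± 0.549 FPKM in EV libraries (SD, n = 3 each; limma, adjusted p = 0.255). CDT1, its partner in loading, depended on 1 library. It was at 13.2, 14.8 and 14.9 FPKM in LACTB libraries and 17.1, 17.0 and 12.9 FPKM in EV libraries, so that EV replicate 3 lay below every LACTB library. The log2 fold change of CDT1 was -0.12 (limma, adjusted p = 0.448), and -0.24 without EV replicate 3 (adjusted p = 0.0317). Its other alternatives gave larger adjusted p-values, up to 0.766.

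Of the 6 subunits of the MCM2-7 ring, 5 fell and MCM3 was higher in every LACTB library. MCM6 was the lowest relative to EV, at 20.8, 20.1 and 18.6 FPKM in LACTB libraries and 27.5, 26.0 and 29.04 FPKM in EV libraries, a fall of 27.9% (log2 fold change -0.45, SE 0.058; limma, adjusted p = 0.00153). MCM2 was at 19.9, 21.4 and 21.2 FPKM in LACTB libraries and 27.3, 28.3 and 26.7 FPKM in EV libraries (log2 fold change -0.38; limma, adjusted p = 0.00111). In both genes the groups were separated by more than the range within either group. MCM4, the most abundant of the 6 by FPKM, was at 62.0, 64.8 and 64.2 FPKM in LACTB libraries and 79.6, 77.5 and 70.3 FPKM in EV libraries (log2 fold change -0.25; limma, adjusted p = 0.0140). MCM5 was at 26.9, 30.7 and 31.6 FPKM in LACTB libraries and 37.1, 36.2 and 34.3 FPKM in EV libraries (log2 fold change -0.26; limma, adjusted p = 0.0217). MCM7 was at 38.5, 41.8 and 43.7 FPKM in LACTB libraries and 48.2, 46.0 and 46.4 FPKM in EV libraries (log2 fold change -0.18; limma, adjusted p = 0.0393). None of these 3 overlapped between the groups. The call of MCM5 was lost with no filter and without EV replicate 1 or 2 (adjusted p over its alternatives 0.00222 to 0.0716), and that of MCM7 was lost under 10 of 15 alternatives, among them leaving out any 1 library except LACTB replicate 3 (0.0183 to 0.140).

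MCM3 was at 49.3, 44.5 and 48.3 FPKM in LACTB libraries and 44.0, 40.9 and 41.4 FPKM in EV libraries. All LACTB libraries lay above all EV libraries, though LACTB replicate 2 and EV replicate 1 were close. The log2 fold change of 0.16 (SE 0.053) missed the threshold (limma, adjusted p = 0.0501). It passed under 5 of 15 alternatives and ran from 0.0144 with limma voom on recovered reads to 0.140 without LACTB replicate 3, with the same sign in all 15. Relative to the mean FPKM of the other 5 subunits, MCM3 stood at 1.47, 1.24 and 1.35 in LACTB libraries and at 1.00, 0.955 and 1.00 in EV libraries. This ratio was chosen after the values were seen and was not tested.

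**Figure D3:**
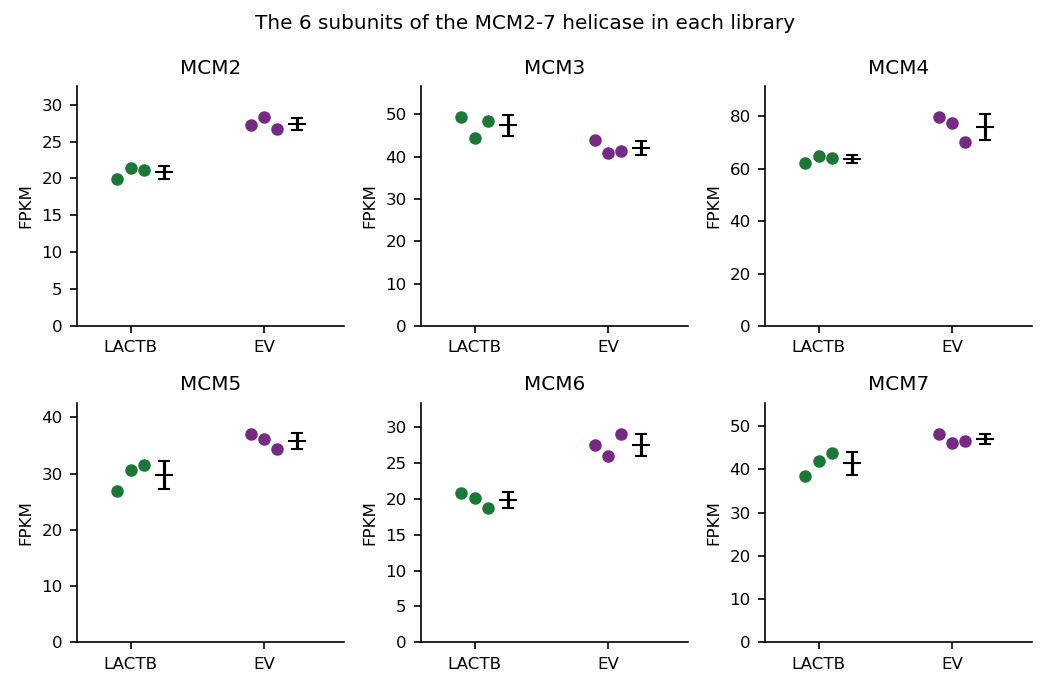
FPKM of MCM2 to MCM7 in each LACTB library (green, left) and each EV library (purple, right), with the mean and SD of each group (n = 3) as a bar beside the points. All panels start at 0; in MCM3 the LACTB libraries lie above the EV libraries, and in the other 5 they lie below.

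Among the factors that turn the loaded ring into an active helicase, 3 of 6 fell and none rose. GINS2 was at 5.62, 6.66 and 6.66 FPKM in LACTB libraries and 8.71, 9.02 and 8.70 FPKM in EV libraries, a fall of 28.3% (log2 fold change -0.43, SE 0.066; limma, adjusted p = 0.00351). GINS1 averaged 19.9 ± 0.723 FPKM in LACTB libraries and 26.1 ± 2.31 FPKM in EV libraries (SD, n = 3 each; log2 fold change -0.38; limma, adjusted p = 0.00634). The GINS complex holds 4 different subunits, and the remaining ones did not pass the threshold: GINS3 had a log2 fold change of -0.10 (limma, adjusted p = 0.247) and GINS4 of -0.11 (limma, adjusted p = 0.371). In GINS4 the spread was wide, at 6.29, 5.47 and 5.51 FPKM in LACTB libraries and 6.56, 6.97 and 5.47 FPKM in EV libraries. CDC45, which joins the ring to GINS, had a log2 fold change of -0.17 (limma, adjusted p = 0.0366). It passed under 5 of 15 alternatives (0.0299 to 0.111), and the call was lost without any 1 of LACTB replicates 1 and 3 and EV replicates 1 and 2. MCM10, which helps to open the helicase, was level at 11.0, 10.3 and 10.1 FPKM in LACTB libraries and 10.2, 10.8 and 10.7 FPKM in EV libraries (limma, adjusted p = 0.856).

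The catalytic subunits of the 3 replicative polymerases fell, whereas the primase subunits and POLA2 did not pass the threshold. POLE, the catalytic subunit of the leading strand polymerase epsilon, was at 5.22, 5.12 and 5.23 FPKM in LACTB libraries and 6.54, 6.60 and 6.60 FPKM in EV libraries, a log2 change of -0.29 (SE 0.041; limma, adjusted p = 0.00225). This was among the tightest separations of the 45 genes, since neither group spanned more than 0.2 FPKM. POLA1, the catalytic subunit of polymerase alpha, averaged 7.36 ± 0.130 FPKM in LACTB libraries and 9.03 ± 0.420 FPKM in EV libraries (SD, n = 3 each; log2 fold change -0.26; limma, adjusted p = 0.00635). POLD1, the catalytic subunit of the lagging strand polymerase delta, was at 10.0, 11.3 and 12.2 FPKM in LACTB libraries and 14.8, 14.2 and 12.8 FPKM in EV libraries. The change was -0.30 on the log2 scale (limma, adjusted p = 0.0276), and that call did not hold with no filter or without any 1 of LACTB replicates 1 and 2 and EV replicates 1 and 2 (0.00403 to 0.0918 over the alternatives). Of the accessory subunits of polymerase delta, POLD3 fell (log2 fold change -0.23; limma, adjusted p = 0.0102), a call lost as TPM (0.00583 to 0.0553 over its alternatives). POLD2 had a log2 fold change of -0.17 (limma, adjusted p = 0.0807), which became -0.23 without EV replicate 3 (adjusted p = 0.0222). It also passed with voom, and its largest value over the alternatives was 0.214. POLE2, an accessory subunit of polymerase epsilon, had a log2 fold change of -0.14 with overlapping groups (limma, adjusted p = 0.256). The primase subunits PRIM1 and PRIM2, which make the RNA primer, were at log2 changes of -0.02 and -0.01 (limma, adjusted p = 0.765 and 0.921). POLA2 had the lowest FPKM of the 45 genes, at 1.84, 2.01 and 1.96 in LACTB libraries and 1.81, 1.78 and 1.87 in EV libraries. On the log2 scale it changed by 0.06 (limma, adjusted p = 0.517). Another annotated gene on the same strand covers 35.1% of the exon bases of POLA2. That gene averaged 0.524 FPKM in LACTB libraries and 0.306 FPKM in EV libraries. Reads in the shared stretch cannot be assigned to POLA2 alone, even if strand was used. Whether the low level or the small change of POLA2 depends on how they were counted was not tested.

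PCNA, the sliding clamp, had the highest level by FPKM of all 45 genes and fell by 23.2%. It was at 116.9, 111.5 and 106.1 FPKM in LACTB libraries and 139.1, 143.1 and 153.4 FPKM in EV libraries (log2 fold change -0.38, SE 0.055; limma, adjusted p = 0.00280). The 4 small subunits of its loader did not move together. RFC5 fell, at 14.7, 13.1 and 14.7 FPKM in LACTB libraries and 18.3, 17.2 and 18.5 FPKM in EV libraries (log2 fold change -0.32; limma, adjusted p = 0.00550). RFC3 was the only one of the 45 genes that rose, at 33.0, 29.9 and 29.3 FPKM in LACTB libraries and 25.4, 26.1 and 27.8 FPKM in EV libraries (log2 fold change 0.21, SE 0.059; limma, adjusted p = 0.0326). LACTB replicate 1 was the highest, and the call was lost with no filter, as TPM and without any 1 of LACTB replicates 1 and 2 and EV replicates 1 and 2. The adjusted p of RFC3 ran from 0.00809 to 0.0966 over 15 alternatives, with the same sign in all. RFC4 and RFC2 did not pass the threshold (log2 fold changes -0.17 and -0.10; limma, adjusted p = 0.0822 and 0.174). RFC3 relative to the mean FPKM of RFC2, RFC4 and RFC5 was 1.93, 1.80 and 1.72 in LACTB libraries and 1.33, 1.39 and 1.32 in EV libraries, an untested ratio chosen after the values were seen. RPA2 and RPA3, subunits of the protein that coats single-stranded DNA, were lower in every LACTB library without passing the threshold (log2 fold changes -0.12 and -0.20; limma, adjusted p = 0.0881 and 0.0690). RPA3 passed at a mean of at least 5 FPKM and with voom (0.0410 to 0.249 over its alternatives).

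Both genes that finish the lagging strand fell. FEN1, the nuclease that removes the flap left by the primer, showed the largest fall of the 45 genes, at 48.8, 52.5 and 53.4 FPKM in LACTB libraries and 75.4, 76.3 and 80.4 FPKM in EV libraries. The gap between the groups exceeded the range within either one. The change was -0.58 on the log2 scale (SE 0.049; limma, adjusted p = 0.000261). LIG1, the ligase that seals the nick, was at 5.71, 5.91 and 5.84 FPKM in LACTB libraries and 7.61, 7.43 and 7.26 FPKM in EV libraries (log2 fold change -0.31; limma, adjusted p = 0.00222).

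Of 4 genes that supply deoxynucleotides, 3 fell and RRM2 did not. TK1, the thymidine kinase of the salvage route, was at 64.1, 70.7 and 69.4 FPKM in LACTB libraries and 93.9, 87.3 and 90.5 FPKM in EV libraries (log2 fold change -0.41, SE 0.052; limma, adjusted p = 0.00150). TYMS, which makes thymidylate, was at 12.3, 11.8 and 13.5 FPKM in LACTB libraries and 16.5, 16.2 and 17.0 FPKM in EV libraries (log2 fold change -0.38; limma, adjusted p = 0.00267). ENOSF1, on the opposite strand, covers 39.1% of the exon bases of TYMS, and reads of the pair cannot be told apart if strand was not used; ENOSF1 averaged 4.61 FPKM in LACTB libraries and 4.90 FPKM in EV libraries. Ribonucleotide reductase, which converts ribonucleotides to deoxynucleotides, is built from the subunits encoded by RRM1 and RRM2. RRM1 averaged 54.8 ± 2.27 FPKM in LACTB libraries and 66.03 ± 2.05 FPKM in EV libraries (SD, n = 3 each; log2 fold change -0.27; limma, adjusted p = 0.00548). RRM2, the subunit whose level follows S phase, was at 28.8, 29.9 and 29.8 FPKM in LACTB libraries and 28.4, 27.7 and 27.2 FPKM in EV libraries (log2 fold change 0.09; limma, adjusted p = 0.131). The RRM2 groups did not overlap, but the difference was small, and it passed the threshold only under quantile normalization (adjusted p = 0.0290; 0.0290 to 0.319 over the alternatives). Another annotated gene on the same strand covers 20.2% of the exon bases of RRM2. That gene averaged 0.274 FPKM in LACTB libraries and 0.488 FPKM in EV libraries. Reads in the shared stretch cannot be assigned to RRM2 alone, and the part of this in the RRM2 values was not tested. RRM2 relative to RRM1 was 0.506, 0.545 and 0.568 in LACTB libraries and 0.445, 0.416 and 0.401 in EV libraries, also an untested ratio chosen after the values were seen.

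All 4 genes of chromatin copying and histone RNA fell, by different amounts. UHRF1, which brings the maintenance DNA methyltransferase to newly copied DNA, was at 30.4, 33.5 and 34.1 FPKM in LACTB libraries and 42.4, 43.9 and 39.1 FPKM in EV libraries (log2 fold change -0.35, SE 0.062; limma, adjusted p = 0.00628). CHAF1A and CHAF1B, subunits of the chromatin assembly factor that places histones behind the fork, had log2 changes of -0.18 and -0.20 (limma, adjusted p = 0.0126 and 0.0274). The call of CHAF1A was lost as TPM (0.01002 to 0.0611 over the alternatives). The call of CHAF1B was lost with no filter, as TPM and without any 1 library except EV replicates 1 and 3 (0.0230 to 0.0864 over the alternatives). SLBP, which binds the stem-loop of histone mRNAs, was at 42.9, 41.9 and 42.0 FPKM in LACTB libraries and 45.3, 46.8 and 50.1 FPKM in EV libraries (log2 fold change -0.16; limma, adjusted p = 0.0355). EV replicate 3 was the highest for SLBP, and the call was lost under 10 of 15 alternatives, among them leaving out any 1 library except EV replicate 1 (0.0266 to 0.259).

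Summed by library, the 45 genes separated the groups without overlap. Their summed FPKM was 1042, 1053 and 1049 in LACTB libraries and 1248, 1241 and 1247 in EV libraries. The median log2 deviation from each gene's mean was -0.11, -0.097 and -0.11 in LACTB libraries and 0.13, 0.13 and 0.10 in EV libraries. The spread within a group was small: the coefficient of variation over 3 libraries had a median of 4.51% in LACTB libraries and 3.95% in EV libraries, with the widest values at 11.1% for POLE2 in LACTB libraries and 15.1% for CDT1 in EV libraries.

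**Figure D4:**
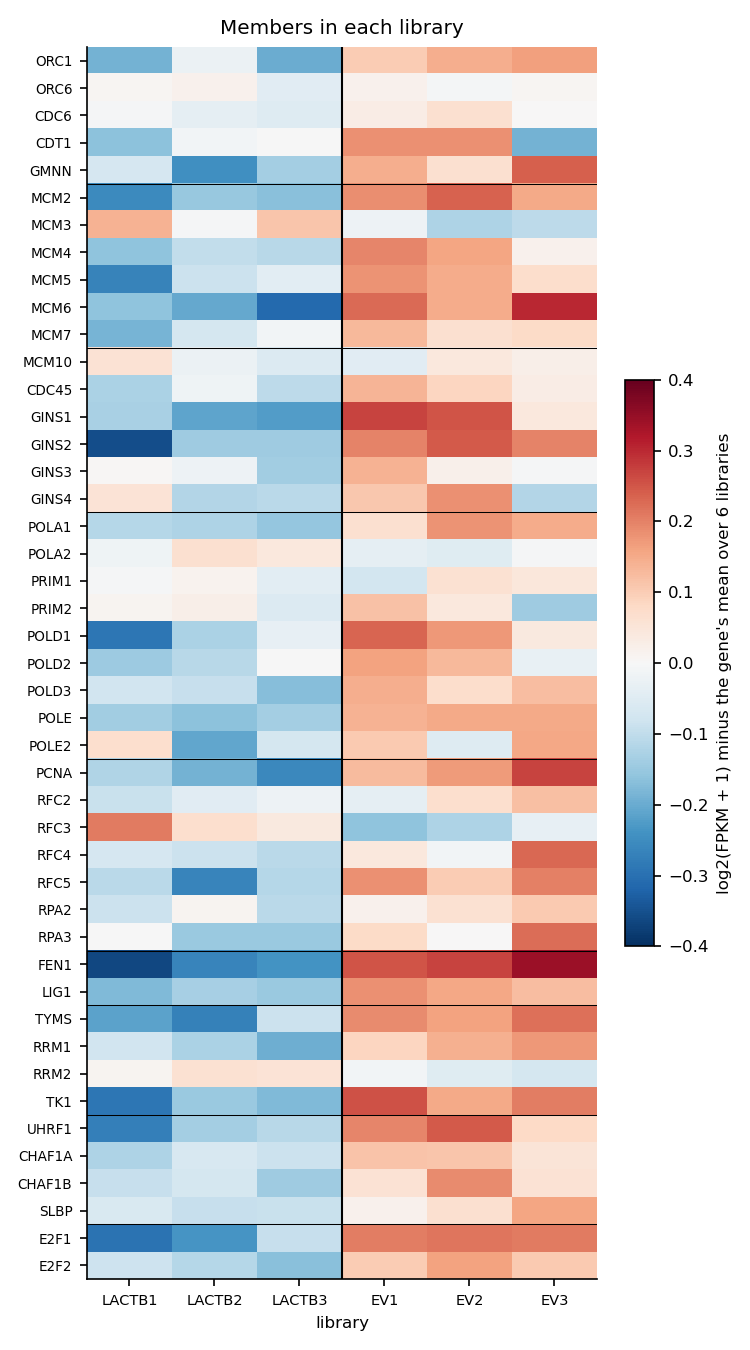
Log2(FPKM + 1) of each of the 45 genes in each library, minus the gene's mean over the 6 libraries, with LACTB libraries left and EV libraries right of the vertical line and horizontal lines between roles. Most rows are blue in LACTB and red in EV; MCM3, RFC3, RRM2 and, less sharply, POLA2 run the other way, and CDT1 is low in EV3.

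Other genes of replication and of the cell cycle gave the setting. Of 46 tested further replication genes, 15 fell and none rose, with a median log2 fold change of -0.11. ASF1B, a histone chaperone, averaged 26.7 ± 0.534 FPKM in LACTB libraries and 38.7 ± 2.18 FPKM in EV libraries (SD, n = 3 each; limma, adjusted p = 0.000460). Of 22 tested regulators from the E2F, RB and DREAM families and the cyclins of the G1 to S transition, 8 fell and 3 rose (median -0.077). These shares were 36.4% and 13.6%, and the share that rose lay near the 14.8% of all tested genes. CCNA2, cyclin A2, and TFDP1, the partner protein of E2F factors, fell (log2 fold changes -0.49 and -0.33; limma, adjusted p = 0.000840 and 0.000847). CCNE1, cyclin E1, and E2F4, an E2F of repressor complexes, rose (log2 fold changes 0.42 and 0.21; limma, adjusted p = 0.0122 and 0.0125), and E2F4 lost its call without LACTB replicate 2 (0.00195 to 0.0585 over its alternatives). CCNE1 rests on 39 to 81 reads per library and averaged 1.68 ± 0.0933 FPKM in LACTB libraries and 1.01 ± 0.166 FPKM in EV libraries (SD, n = 3 each), 66.4% higher. At this level the pseudocount of 1 shrinks the fold change, which was 0.69 with a pseudocount of 0.1 and 0.76 with voom. The other cyclin E gene, CCNE2, went the opposite way. It averaged 5.98 ± 0.417 FPKM in LACTB libraries and 7.17 ± 0.606 FPKM in EV libraries (SD, n = 3 each). Its log2 fold change was -0.23 (limma, adjusted p = 0.0488), and the call held under 5 of 15 alternatives.

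Of 10 tested genes of the replication checkpoint, 3 fell and 1 rose (median -0.11). The share that rose, 10% from 1 gene, lay near the 14.8% of all tested genes. WEE1, the kinase that holds back mitosis, and CDC25C, the phosphatase that opposes it, fell (log2 fold changes -0.35 and -0.38; limma, adjusted p = 0.00720 and 0.00700). RAD17, which loads the checkpoint clamp, rose to 10.0, 10.6 and 10.1 FPKM in LACTB libraries, against 7.55, 8.06 and 8.46 FPKM in EV libraries (log2 fold change 0.32; limma, adjusted p = 0.00448). Of 31 tested mitosis genes, 29 fell and none rose, with a median log2 fold change of -0.35. The smallest p in that list belonged to KIF20A, a kinesin of cell division, and BIRC5, the mitotic protein survivin, with log2 changes of -0.69 and -0.54 (limma, adjusted p = 8.19e-05 and 0.000229). The share that fell was therefore 93.5% of mitosis genes, 60.0% of the 45 replication genes, 36.4% of the E2F, RB and DREAM regulators, 32.6% of the further replication genes and 30.0% of the checkpoint genes, beside 17.2% of all tested genes. The lists were chosen by name, with earlier results of these data known, and their difference was not tested.

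**Figure D5:**
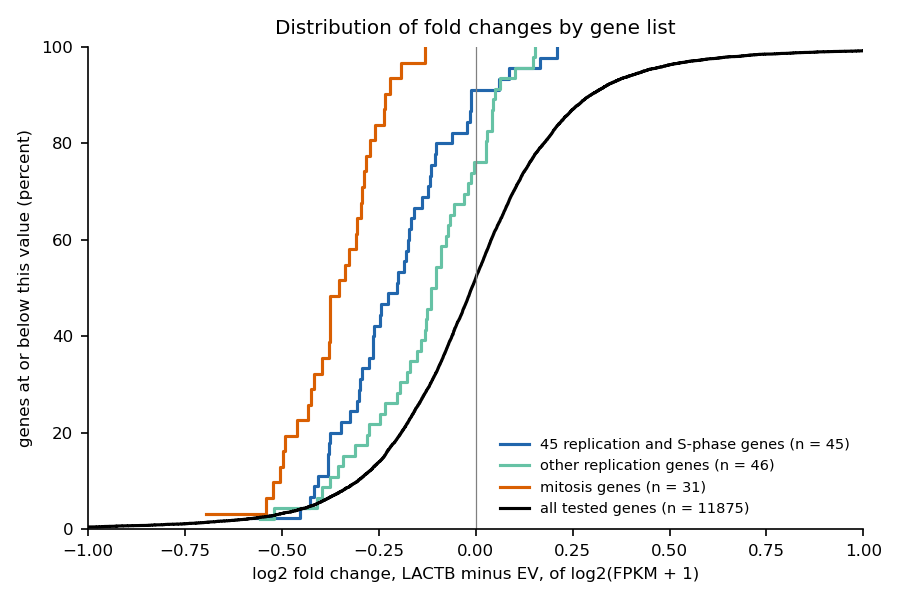
Cumulative share (percent) of genes at or below each log2 fold change (LACTB minus EV) for the 45 replication genes, 46 further replication genes, 31 mitosis genes and all 11875 tested genes. The curve of the 45 genes lies left of that of all genes, with a median of -0.20 against -0.01, and the curve of mitosis genes lies further left, with a median of -0.35; values beyond 1 in size are outside the axis.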

How the data were processed

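RNA of 6 libraries (LACTB and EV, 3 each) was sequenced as paired-end reads of 150 bp on a NovaSeq after a NEBNext Ultra library preparation, per the labels' protocols. The submitters' processing notes name the build GRCh38 (hg38) and, with neither role nor order, DESeq2 1.16.1, HISAT2 2.0.5 and featureCounts 1.5.0-p3. Strand, trimming, the treatment of reads with several matches and the annotation used are all not given in the sources used here. The authors deposited 1 FPKM value per gene and library, so a measure of library size and exon length were already divided out.

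All 58735 gene IDs matched GENCODE 29. FPKM times exon length came out as whole reads for 100% of values above 0 in each library (tolerance 0.1 reads), which gave the reads behind each value. The library size behind the values was not the reads in genes. It was larger than those reads in every LACTB library (1.81e+07 against 17821609 in replicate 1) and in EV replicate 3. In EV replicates 1 and 2 it was smaller (1.76e+07 against 17892101 in replicate 1). How it was set is not given in the sources used here. Libraries of the same group differed by more than sampling noise in those reads (chi-square over degrees of freedom 1.97 to 11.2), so none was treated as a library deposited again; this does not show that they are independent cultures. Because FPKM is not a count, the test was limma 3.58.1 in R 4.3.3 (lmFit, then trended eBayes) on log2(FPKM + 1) for the 11875 genes that averaged 1 FPKM or more, called at an adjusted p under 0.05 (Benjamini-Hochberg). Fold changes on this scale understate the change of low genes, and percentages are from group means of FPKM. The fit was tested on simulated data. The alternatives tried were TPM, quantile normalization, median-of-ratios scaling, a filter at 5 FPKM or none, a pseudocount of 0.1, no variance trend, a replicate block, limma voom on recovered reads and each library left out.

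The 45 genes and the other lists were chosen with earlier results of these data known. Values in every library were to be given for the members with the lowest and highest fold change in each role and for those that rose. The same held for MCM2 to MCM7, PCNA, E2F1, TYMS and RRM2. From the other lists, up to 2 fallen and 2 risen genes with the smallest p were to be named, and RAD17 is also given by library. A gene that this rule names among the further replication genes is not reported here. Library values of ORC1, CDT1, GINS4, POLE and RFC5 were added after they were seen, and so were the group means of CCNE2. 19 of the 45 genes share exon bases with another annotated gene, and 7 share at least 10% of them: GINS3, GINS4, MCM2, POLA2, PRIM1, RRM2 and TYMS. 8 have pseudogenes of their name, which took at most 3 reads each over the 6 libraries.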

Additional observations from a re-analysis of the deposited data

How the results depend on the processing

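The 27 genes that fell kept their sign under all 15 alternatives (14 for E2F2, which the filter at 5 FPKM removes), and 16 of them kept their call under all: MCM2, MCM4, MCM6, GINS1, GINS2, POLA1, POLE, PCNA, RFC5, FEN1, LIG1, TYMS, RRM1, TK1, UHRF1 and E2F1. The number that fell was 21 with no filter, 19 as TPM, 24 with quantile normalization or no variance trend, 28 with voom and 20 to 27 with 1 library left out. The number that rose was 0 with no filter or as TPM, 2 at a mean of at least 5 FPKM, with median-of-ratios scaling or with voom, 3 with quantile normalization, and 0 to 1 with 1 library left out. The median log2 fold change of the 45 genes was -0.23 with a pseudocount of 0.1, -0.19 with median-of-ratios scaling, -0.22 with voom, and -0.23 to -0.21 with 1 library left out.

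Over all genes, 2038 fell and 1758 rose in the main fit. As TPM 1295 fell and 1615 rose, so more genes rose than fell. At a mean of at least 5 FPKM 1605 fell and 1155 rose. With no filter these numbers were 1403 and 1254, with median-of-ratios scaling 1907 and 1864, and with quantile normalization 1893 and 1787. They were 1965 and 1753 with no variance trend and 2195 and 2147 with voom. With 1 library left out 1388 to 1800 fell and 1115 to 1505 rose. Of the further replication genes 9 fell as TPM and 1 rose with voom (0 to 1 with 1 library left out). Of the E2F, RB and DREAM regulators 5 fell with no filter, 5 to 7 fell with 1 library left out, and 1 to 3 rose with 1 library left out. Of the mitosis genes 24 fell with no filter or as TPM, and 24 to 29 fell with 1 library left out. Stricter filters and fewer libraries change the number of genes or samples tested; for the scalings the cause was not tested.

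With the replicate number as a block, 19 of the 45 genes fell and 0 rose, 1324 genes fell and 1155 rose over all, and 1 of the E2F, RB and DREAM regulators rose. Within the 45, the calls lost with the block were those of MCM5, MCM7, CDC45, POLD1, CHAF1A, CHAF1B, SLBP, E2F2 and RFC3. Outside the 45, E2F4 and further genes of every other list lost theirs. With the block 12 of the further replication genes, 6 of the regulators, 2 of the checkpoint genes and 25 of the mitosis genes fell. No shared effect of the replicate number was visible. The deviations of same-numbered libraries from their group means correlated at -0.13, 0.019 and -0.044 across tested genes. No library correlated best with its own number. These correlations cannot show whether same-numbered libraries were prepared together, which the labels do not say.

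4 genes that did not pass the threshold changed sign. ORC6 was at 0.011 as TPM, 0.00017 with median-of-ratios scaling, 0.0020 with quantile normalization, 0.00010 with voom and -0.024 to 0.0070 with 1 library left out. MCM10 was at 0.00863 as TPM, 0.00687 with quantile normalization and -0.045 to 0.010 with 1 library left out. PRIM1 was at 0.0021 with quantile normalization and -0.064 to 0.0027 with 1 library left out. PRIM2 was at 0.011 as TPM, 0.00055 with median-of-ratios scaling, 0.0014 with voom and -0.086 to 0.045 with 1 library left out.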
